A study of Mus musculus with 10 samples.

Results

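The kidneys were examined for 8 genes of glutamine breakdown and renal ammonia production, which were Gls2, Glud1, Glul, Pck1, Slc38a3, Slc1a1, Got1 and Got2, out of 27876 genes in the table. The members were named with earlier results of the same contrast in view, in which Gls2 was known to stand out. Each gene was read from its transcript with the highest mean level in the authors' deposited table, and the other transcripts of the gene are given beside it. Wild-type mice received vehicle or quinolinic acid at 0.5 g/L in the drinking water, and kidney tissue of 5 animals in each group was collected on day 14, under 1 batch label. The submitters chose these animals as representative of their group, by criteria that are not given. Age, sex and strain are not in the labels, and no induced kidney injury is named for these animals. The comparison sets the RNA of the 2 groups of kidneys against each other.

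The kidney makes ammonium mainly in the proximal tubule. Glutamine is taken up, mitochondrial glutaminase removes its amide nitrogen, glutamate dehydrogenase releases the remaining nitrogen, and the carbon leaves through phosphoenolpyruvate carboxykinase towards glucose or complete oxidation, which yields new bicarbonate. Metabolic acidosis is known to raise several of these steps, while glutamine synthetase forms glutamine in a separate reaction that consumes ammonium. Quinolinic acid, a breakdown product of tryptophan, is known as an inhibitor of the phosphoenolpyruvate carboxykinase enzyme in rat liver, an effect on the protein that RNA levels do not measure.

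The values are those of a finished comparison between the groups. For each of 85107 transcripts the authors' deposited table lists the log2 fold change between the groups (log2FC below), the mean level over all 10 libraries as log2 CPM, the count scaled to the library total, the likelihood-ratio score of edgeR, its p, and the Benjamini-Hochberg adjusted p (FDR below). Values of single mice were not analysed here, which leaves library depth unknown and the spread between animals out of reach. Since the header names no numerator, every sign below is as deposited and is not a direction relative to quinolinic acid. Errors are approximate 95% intervals derived from the log2FC and its score. Because this contrast was known when the members were named, their values and p-values, as deposited or recomputed under another setting, are a description and not an independent test of the members. Kidney identity was plain from segment markers of the nephron, all 24 of which were measured, at 6.20 to 16082 CPM, with log2FC values of -0.11 to 0.41 per the authors' deposited table.

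Gls2, the liver-type glutaminase, carried the only large difference among the members, and the other 7 genes lay close to 0. Its most abundant transcript, Gls2-211, had a log2FC of 1.68 (approximate 95% interval 0.97 to 2.39), a 3.21-fold difference, with an FDR of 0.0249 per the authors' deposited table. After a trend of log2FC on transcript length and level was subtracted, the log2FC of Gls2 was 1.54 with an FDR of 0.0819, computed here over the 27876 genes, so the call was lost. As deposited, 1 of the 8 members passed an adjusted p of 0.05, where 0.0215% of all genes and 0.0141% of all transcripts did. Nothing is read from this count, since Gls2 was chosen with its value known. By deposited p Gls2 stood in place 6 of all 27876 genes and in place 3 of the 4123 genes between 0.1 and 1 CPM, and 78 of these 4123 had a larger absolute log2FC. Its mean level was very low, at 0.201 CPM per the authors' deposited table.

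**Figure D1:**
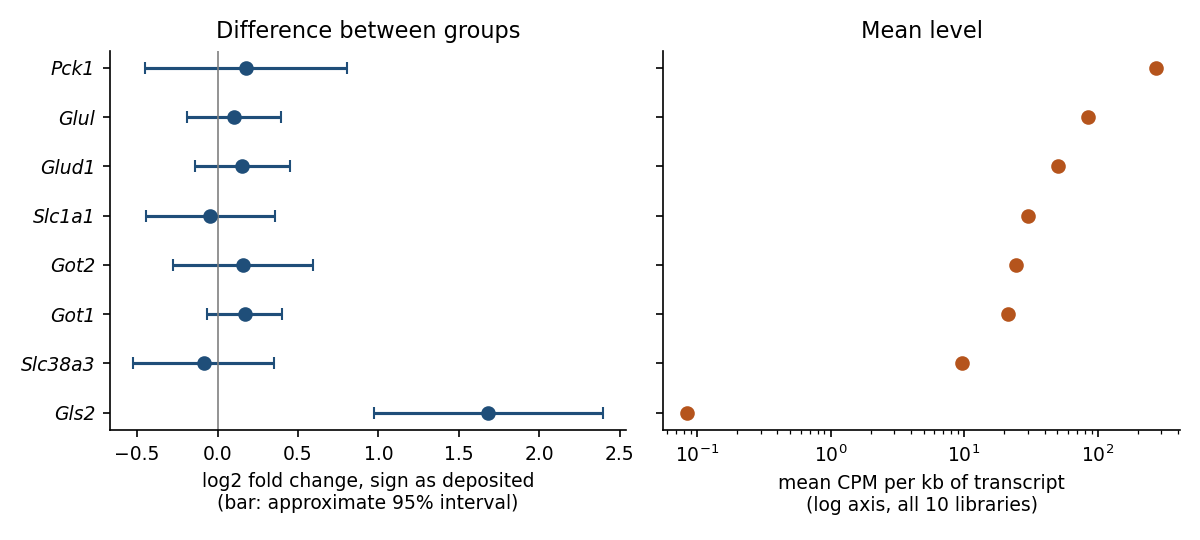
The left panel plots the log2FC of each member with its approximate 95% interval, and the right panel its mean level in CPM per kb on a log axis. Gls2 alone has an interval away from 0 (0.97 to 2.39), and it also has the lowest level, 0.0840 CPM per kb; its call was lost once the length and level trend was subtracted (FDR 0.0819).

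For Gls2, 4 transcripts passed an adjusted p of 0.05 per the authors' deposited table, and they are splice forms that share 14 identical exons. Gls2 lies on the plus strand of chromosome 10, and Gls2-211 spans 128194726 to 128210004 (mm10) in 18 exons. The sequences below, read from the GENCODE vM21 transcripts, show the junctions where the forms part. Lower case gives the last 20 bases of the exon before the junction and capitals the first 29 bases after it, 5′ to 3′ on the plus strand.
Gls2-201: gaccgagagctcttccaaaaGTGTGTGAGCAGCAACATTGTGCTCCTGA
Gls2-211: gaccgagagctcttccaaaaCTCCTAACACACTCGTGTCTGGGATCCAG
Gls2-208: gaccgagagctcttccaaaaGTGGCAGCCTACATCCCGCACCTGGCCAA
Gls2-205: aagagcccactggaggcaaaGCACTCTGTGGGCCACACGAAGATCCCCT
Gls2-201 is the full coding form, and its junction joins exon 3, ending at 128199758, to exon 4, starting at 128200173. Gls2-211 enters exon 4 earlier, at 128200144, and the capitals are the 29 added bases, inside which the annotation places a stop codon at 128200148 to 128200150. Gls2-208 leaves out the 130 bases of exon 4 and continues at 128200886. Gls2-205 leaves out the 80 bases of exon 5, so its junction joins the end of exon 4 at 128200302 to 128201206. The annotation marks Gls2-211, Gls2-208 and Gls2-205 as targets of nonsense-mediated decay.

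These 4 forms had nearly equal levels and fold changes. Their mean levels were 0.201 CPM for Gls2-211, 0.199 CPM for Gls2-201, 0.199 CPM for Gls2-205 and 0.198 CPM for Gls2-208 per the authors' deposited table. The log2FC was 1.68 for Gls2-211 and 1.73 for each of the remaining forms per the authors' deposited table. Because they share most of their exons, the 4 calls are not independent measurements and do not say which form the kidney makes. The choice of Gls2-211 as the representative rests on 0.201 against 0.199 CPM for the coding form, which had an FDR of 0.0217 per the authors' deposited table.

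All 11 Gls2 transcripts in the table had a positive sign. Their log2FC values ran from 1.23 for Gls2-210 to 2.40 for Gls2-206 at levels of 0.0231 to 0.201 CPM, and 8 of the 11 had an unadjusted p under 0.05 per the authors' deposited table. Over all transcripts this share was 6.08%. The 11 rows overlap in their exons and are not independent measurements, and Gls2 was chosen with its value known, so nothing is read from this count. Gls2-207, which covers the downstream exons only, had a log2FC of 1.67 and an FDR of 0.0893 per the authors' deposited table. Gls2-202, a coding fragment of the first exons, had one of 1.39 at 0.0231 CPM, with an FDR of 0.794 per the authors' deposited table. Gls2-202, Gls2-203 and Gls2-210, which hold only upstream exons, had intervals that included 0. Their levels, 0.0231 to 0.0260 CPM, lay close to the lowest of any gene, 0.0201 CPM. They also share exonic bases with the longer forms, so their positive sign says little about the upstream part of the gene.

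**Figure D2:**
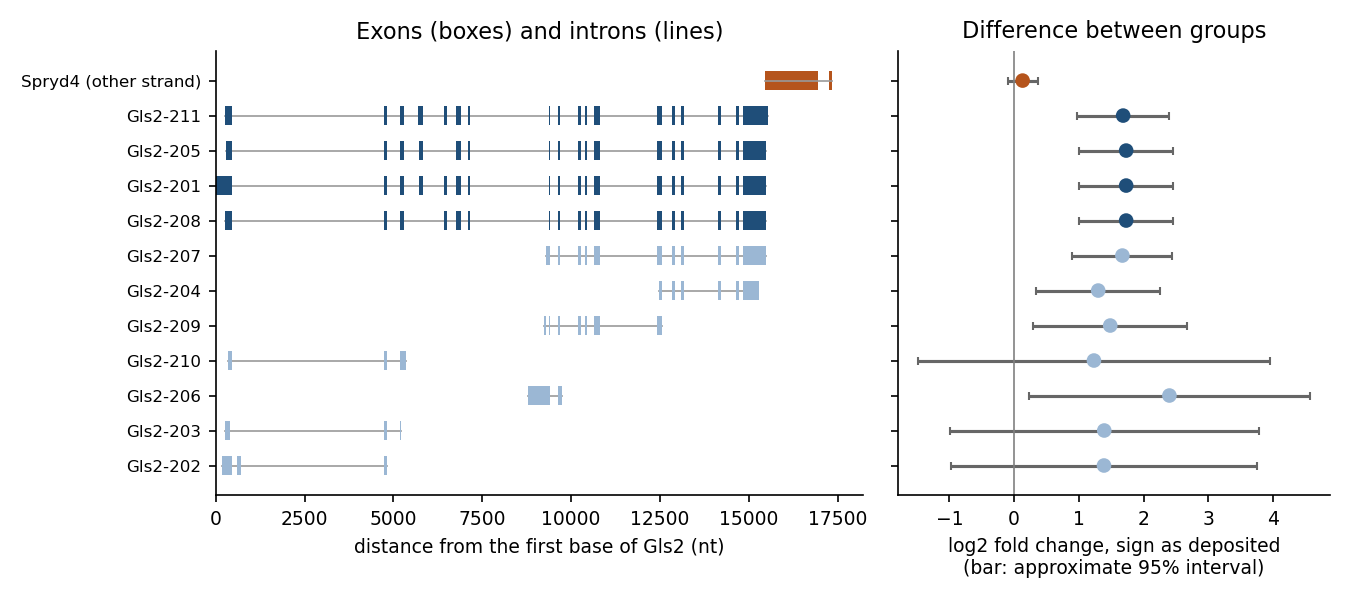
The left panel maps the exons of the 11 Gls2 transcripts and of Spryd4 by distance from the first base of Gls2, ordered by mean level, and the right panel gives each log2FC with its approximate 95% interval. Dark rows passed an adjusted p of 0.05, and all 11 Gls2 rows lie right of 0, while Spryd4 lies at 0.13.

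Spryd4, a gene of the opposite strand, overlaps the 3′ end of Gls2 and was measured at a far higher level. The shared exonic stretch is 97 bases for Gls2-211, 32 for Gls2-201, 35 for Gls2-207 and 27 each for Gls2-205 and Gls2-208, while Gls2-204, Gls2-209, Gls2-206 and the 3 upstream fragments share 0. Spryd4 had a log2FC of 0.13 at 7.77 CPM with an FDR of 0.794 per the authors' deposited table. Gls2-204, which ends before the overlap, had one of 1.30 at 0.135 CPM with an unadjusted p of 0.00772 per the authors' deposited table. The sources used here do not state a strand setting for the counting.

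Markers of liver and neurons, where Gls2 is known to be expressed, and of fat also had positive signs. So did 71.8% of all genes of at least 1 CPM and 61.3% of those from 0.1 to 1 CPM. Of the 6 neuronal and the 6 adipocyte genes, 1 each reached 1 CPM. The part of these markers in the Gls2 value was not tested. Of 14 hepatocyte genes 13 were measured and these were all positive, with a median log2FC of 0.58 and a range of 0.12 to 2.21 per the authors' deposited table. All measured markers of podocytes, endothelium, leukocytes, intercalated and principal cells and the distal convoluted tubule were positive too, 3 or 4 genes each, with medians of 0.10 to 0.18. With the length and level trend subtracted, 10 of the 13 hepatocyte genes were positive with a median of 0.36, and Apoh, Fgg and Serpina1a were slightly negative. Of the 13, none passed an adjusted p of 0.05 in the authors' edgeR likelihood-ratio test and 7 had an unadjusted p under 0.05, where 5.12% of all genes did. Cps1, the ammonia-fixing enzyme of the urea cycle in liver, had a log2FC of 2.21 at 0.129 CPM and Alb, the albumin gene, one of 1.27 at 6.53 CPM per the authors' deposited table. Not all of this list is foreign to these kidneys, as 5 of the 13 measured genes reached 10 CPM. These 5, Cyp2e1, Fga, Fgg, Serpina1a and Ttr, had log2FC values of 0.14 to 0.45. None of them had an unadjusted p under 0.05 in the authors' edgeR likelihood-ratio test, and the 7 genes that did were all under 10 CPM. The 6 neuronal genes had positive signs from 0.10 to 2.29 at 0.0451 to 5.12 CPM, and 3 of them had an unadjusted p under 0.05 per the authors' deposited table. After subtraction of the trend 5 of the 6 were positive, Rbfox3 being the exception. The 6 adipocyte genes ran from 1.48 to 4.61 at 0.0583 to 1.43 CPM, and all 6 had an unadjusted p under 0.05 per the authors' deposited table. Their median log2FC of 3.46 was the highest of the 3 lists, and none passed an adjusted p of 0.05. With the trend subtracted all 6 stayed positive, with a median of 3.31. The lowest level in these 3 lists was 0.0451 CPM for Snap25, where the lowest of any gene was 0.0201 CPM. Levels per group cannot be given. In bulk kidney, fewer cells of a type and less RNA per cell cannot be told apart.

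Both transporters of the substrates had values near 0. Slc38a3, which encodes the sodium-coupled glutamine transporter SNAT3 of the basolateral proximal tubule, had a log2FC of -0.09 (-0.53 to 0.35) at 30.7 CPM with an FDR of 0.972 per the authors' deposited table. Its transcript Slc38a3-202 lies on the minus strand of chromosome 9, from 107650634 to 107659528. Slc1a1, the gene of the apical glutamate transporter EAAT3 (chromosome 19, 28835074 to 28913960), stood at -0.05 (-0.44 to 0.35) and 113.9 CPM with an FDR of 1.00 per the authors' deposited table. These were the 2 members with a negative sign, and both intervals included 0. Slc1a1 shares 2631 exonic bases with a gene of the opposite strand, so its reads may not be told apart from that gene's without strand.

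Glud1, the mitochondrial glutamate dehydrogenase that frees ammonium from glutamate (chromosome 14, 34310727 to 34345265), had a log2FC of 0.15 (-0.14 to 0.45) at 170.4 CPM with an FDR of 0.818 per the authors' deposited table. Glul, the glutamine synthetase that consumes ammonium (chromosome 1, 153899944 to 153909723), stood at 0.10 (-0.19 to 0.39) and 235.6 CPM with an FDR of 0.914 per the authors' deposited table. Glul has a processed copy of 96.8% identity in the genome, measured at 0.0442 CPM per the authors' deposited table. The enzyme that releases ammonium and the one that binds it thus both had small positive values whose intervals included 0. Per kb, Glul stood 1.68 times as high as Glud1, at 84.4 against 50.3 CPM per kb.

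The aspartate aminotransferases move the nitrogen of glutamate to oxaloacetate and form part of the malate-aspartate shuttle. Got1, the cytosolic enzyme (chromosome 19, 43499752 to 43524605), had a log2FC of 0.17 (-0.06 to 0.40) at 43.6 CPM with an FDR of 0.794 per the authors' deposited table. Got2, the mitochondrial enzyme (chromosome 8, 95864134 to 95888547), stood at 0.16 (-0.28 to 0.59) and 61.9 CPM with an FDR of 0.900 per the authors' deposited table. Got2 has near-identical copies, and the 2 that were measured stood under 0.1 CPM per the authors' deposited table. The values of Got1 and Got2 lay within 0.01 of each other on the log2 scale, and per kb their levels were 21.2 for Got1 and 24.5 CPM for Got2.

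Pck1, the cytosolic phosphoenolpyruvate carboxykinase that takes the carbon on towards glucose, was the most abundant member. It had a log2FC of 0.18 (-0.45 to 0.80) at 749 CPM with an FDR of 0.938 per the authors' deposited table. The interval was the widest among the 7 members of at least 1 CPM and still holds differences of up to 0.80 on the log2 scale. The representative, Pck1-202, is annotated as retaining an intron (chromosome 2, 173153082 to 173159271), and the coding Pck1-201 had the same rounded log2FC, 0.18, at 749 CPM per the authors' deposited table. Per kb, Pck1 at 275 CPM stood 28.2 times as high as Slc38a3 at 9.73 and 77.5 times as high as its mitochondrial counterpart Pck2.

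By level per kb the order was Pck1, Glul, Glud1, Slc1a1 at 30.0 CPM, Got2, Got1, Slc38a3 and Gls2. The deposited means come without a spread, so whether neighbours in this order differ cannot be judged. Of the 8 members 6 had a positive sign, with a median log2FC of 0.16, against 71.8% positive and a median of 0.08 over the 13115 genes of at least 1 CPM. Without Gls2 the members gave 5 positive and 2 negative signs, a median of 0.15, and 0 with an unadjusted p under 0.05 in the authors' edgeR likelihood-ratio test. Subtraction of the joint trend of log2FC on transcript length and level gave medians of 0.05 for the 8 members and -0.01 for all genes. All 8 members kept their sign, but nothing is read from this, as values such as 0.02 for Glul and 0.04 for Got1 lay near 0. The subtraction centres all genes near 0 by design, and the positive share of genes of at least 1 CPM went from 71.8% to 44.4%.

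Within a gene, the value depended on which end of the transcript a row covered. The 8 members have 50 rows in the authors' deposited table, and 35 of them lack at least 500 exonic bases at the 3′ end of the gene's most abundant transcript. Of these, 29 had a lower log2FC than that transcript, or 25 of 30 without Gls2. The limit of 500 bases was set after the values were seen. Of all such rows in the table (at least 1 CPM, in genes of at least 10 CPM), 84.8% of 14928 were lower, close to the share among the members. The member counts had no such limit on level and their rows overlap, so the comparison is rough. Among the member rows counted as not lower, 4 were Slc38a3 rows within 0.01 of the most abundant transcript. Over these 4271 genes the median difference was -0.11 (middle 50% from -0.20 to -0.04). Rows that kept the 3′ end but lacked at least 500 bases at the 5′ end went the other way, with a median difference of 0.05 over 827 genes, 11.6% of which were lower.

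Slc38a3 showed the widest range of the 7 members of at least 1 CPM. Its 5 rows that reach far into the 3′ end had log2FC values of -0.09 at 30.6 to 30.7 CPM per the authors' deposited table. Another 3 rows that lack 1509 to 1556 bases at the 3′ end had values of -0.16 to -0.11 per the authors' deposited table. The 6 rows that lack more than 2000 bases at the 3′ end had values of -0.61 to -0.32 at 0.322 to 2.16 CPM per the authors' deposited table. Slc38a3-214 and Slc38a3-208 among them had an unadjusted p of 0.0379 and 0.0458, and an FDR of 0.794 for both per the authors' deposited table. Slc38a3-212, which had the value of -0.32, also lacks 878 bases at the 5′ end and so comes from the middle of the gene. A glutamine transporter with a difference near 0 over its whole length thus had rows further on the negative side where more than 2000 bases of the 3′ end were missing.

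Of the other members 3 had rows of both signs. The Pck1 rows Pck1-203 and Pck1-204, which hold the first exons, had log2FC values of -0.08 and -0.09 at 88.2 and 70.3 CPM per the authors' deposited table, against 0.18 for the whole transcript. All 4 shorter Glul rows were negative, from -0.13 to -0.01, against 0.10 for the whole transcript per the authors' deposited table. The upstream row Got1-202 had a log2FC of -0.04 and the downstream row Got1-203 one of 0.21 per the authors' deposited table. Glud1 rows ran from 0.00 to 0.15 and Slc1a1 rows from -0.20 to -0.05 per the authors' deposited table, in each case with the whole transcript as the highest. For Got2 the shorter row had a log2FC of 0.05 against 0.16 per the authors' deposited table. What sets upstream and downstream rows apart between the groups was not tested, and RNA integrity of the libraries was not analysed here.

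**Figure D3:**
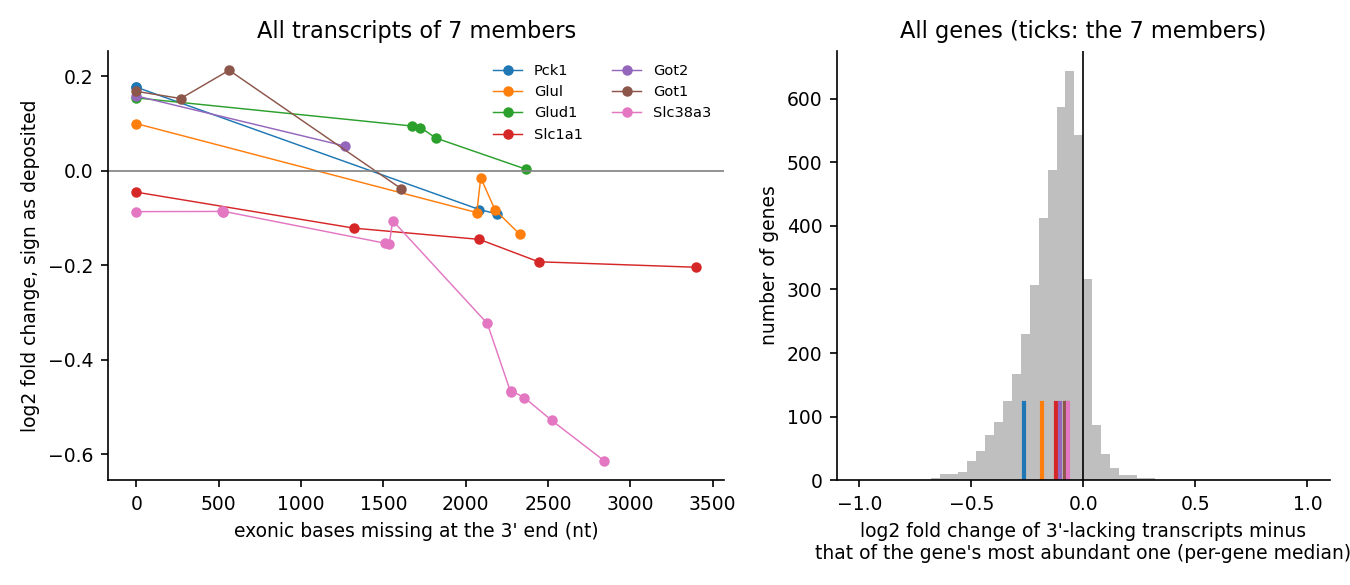
The left panel plots the log2FC of every transcript row of the 7 members other than Gls2 against the exonic bases it lacks at the 3′ end, and the right panel counts, over 4271 genes, the median difference between 3′-lacking rows and the most abundant transcript (values off the axis are in the outermost bins). Lines fall to the right for most members, and the coloured ticks of all 7 lie left of 0 within the grey distribution, whose median is -0.11.

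Around the members, 51 further genes of glutamine handling and ammonia transport were described, of which 50 were measured. None passed an adjusted p of 0.05 in the authors' edgeR likelihood-ratio test, and 4 had an unadjusted p under 0.05 (5.12% of all genes did), of which 3 were positive and 1 negative. Positive signs numbered 38 and negative signs 12, or 76.0% positive against 71.8% of all genes of at least 1 CPM, with a median log2FC of 0.15 against 0.08. After subtraction of the length and level trend the signs were 33 positive and 17 negative, with a median of 0.07. Genes of at least 1 CPM then gave 44.4% positive and a median of -0.01, as the subtraction centres all genes near 0. Rhag was not analysed here.

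Of the 8 genes of glutamine entry, Slc3a2, the heavy chain of several amino acid exchangers, had the smallest p, with a log2FC of 0.28 at 54.4 CPM (p = 0.0305, FDR 0.794) per the authors' deposited table. Slc7a7, a light chain that pairs with it at the basolateral membrane, had one of 0.34 (p = 0.0895) per the authors' deposited table. Ggt1, the brush border enzyme gamma-glutamyltransferase, stood at 0.08 (p = 0.725) per the authors' deposited table, and at -0.03 with the trend subtracted. The 8 genes of glutamine entry, among which Ggt1 is not counted, had 5 positive and 3 negative signs.

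All 6 mitochondrial carriers and all 10 genes that carry the carbon on after glutamate had positive signs, in a table where 71.8% of genes of at least 1 CPM did. Slc25a11, the oxoglutarate carrier, had a log2FC of 0.24 (p = 0.0992) and the scarce glutamate carrier Slc25a18 one of 1.39 at 0.0353 CPM (p = 0.0754) per the authors' deposited table. The aspartate-glutamate carriers Slc25a12 and Slc25a13, which work with Got1 and Got2 in the malate-aspartate shuttle, had values of 0.05 and 0.15 per the authors' deposited table. Pck2, the mitochondrial carboxykinase, had a log2FC of 0.28 at 12.0 CPM (p = 0.0255, FDR 0.792) and Mdh2, mitochondrial malate dehydrogenase, one of 0.29 (p = 0.138) per the authors' deposited table. After the length and level trend was subtracted, these groups had medians of 0.08 and 0.07, and Sdha, a subunit of succinate dehydrogenase, was negative at -0.03.

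Among the 11 other genes of glutamate use, Gpt2, the mitochondrial alanine aminotransferase, had a log2FC of 0.20 (p = 0.0853) and Gad1, glutamate decarboxylase, one of 0.61 at 0.298 CPM (p = 0.0871) per the authors' deposited table. This group had 7 positive and 4 negative signs and a median of 0.07.

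Ammonia transport went both ways, with 4 positive and 3 negative signs, or 3 and 4 with the trend subtracted. Rhbg, a basolateral ammonia channel of the collecting duct, had a log2FC of 0.39 at 15.2 CPM (p = 0.0449, FDR 0.794) per the authors' deposited table. Its relative Rhcg, which passes ammonia into the urine, had one of 0.21 at 41.2 CPM (p = 0.177) per the authors' deposited table. Aqp8, an aquaporin that also conducts ammonia, stood at -0.87 at only 0.532 CPM (p = 0.0147, FDR 0.761) per the authors' deposited table. Of the 6 genes of bicarbonate and acid sensing 4 were positive, and Car2, the cytosolic carbonic anhydrase, had a log2FC of 0.23 (p = 0.0786) and the proton-sensing receptor gene Gpr4 one of 0.27 (p = 0.115) per the authors' deposited table. Cryz, zeta-crystallin, a quinone oxidoreductase that also binds RNA, stood at 0.05 at 192 CPM (p = 0.789) per the authors' deposited table, and at -0.04 with the trend subtracted.

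**Figure D4:**
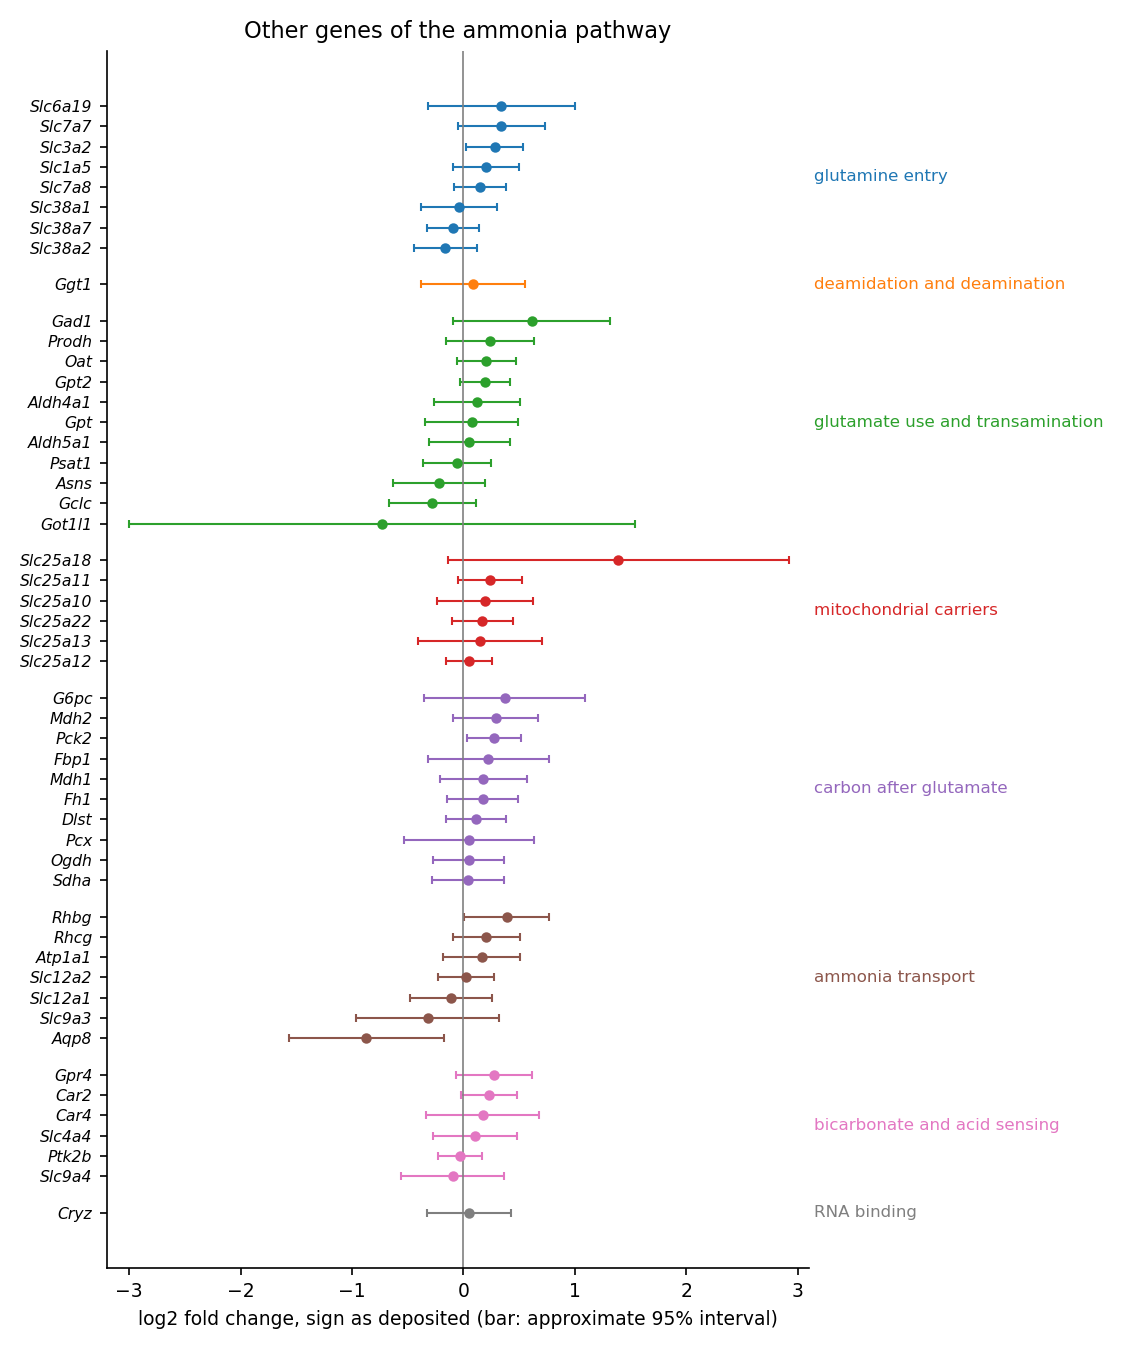
Each point is the log2FC of 1 of the 50 further genes, with its approximate 95% interval, grouped by role. Most points lie slightly right of 0, with 38 positive signs, and the widest intervals belong to scarce genes such as Got1l1 and Slc25a18.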

How the data were processed

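RNA of 10 kidney samples, 5 per group by the treatment in the titles, was analysed from 1 table. The submitters' processing notes name STAR 2.5.3a, Subread 1.4.6 with featureCounts, edgeR and FastQC 0.11.2, with the build mm10. Filters, strand setting and depth are not given in the sources used here. The authors, per the file headers, deposited a log2 fold change and mean log2 CPM for each transcript, a likelihood-ratio score on 1 degree of freedom, and p-values with adjusted p-values. The deposited p equalled the chi-square tail of the score and the adjusted p its Benjamini-Hochberg value over 85107 transcripts.

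Transcripts were matched without version to GENCODE vM21 (assembly GRCm38, as mm10), and 83446 (98.0%) matched. An approximate standard error came from dividing the absolute log2 fold change by the root of the score, and the interval spans 1.96 of them to each side; it cannot show how single mice differ. The length and level trend was removed with loess (span 0.5) in R 4.3.3 over 27876 genes, and the step was tested on simulated data. Sequence copies were sought with blastn 2.17.0 (at least 90% identity over 100 bases). Python 3.11.15, numpy 2.4.6, pandas 2.3.3, scipy 1.17.1 and matplotlib 3.10.9 did the rest. Members, gene lists and marker lists were chosen with earlier results of these data known. All 8 members were to be named, and of each pathway role the 2 genes with the smallest p, besides Pck2, Rhcg, Rhbg, Slc25a12, Slc25a13 and any gene overlapping a member; 1 further gene of the pathway list is not reported here and was left out of its counts. Alternatives were other representative transcripts, other sets for the adjustment, other thresholds, and the removed trend.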

Additional observations from a re-analysis of the deposited data

How the results depend on the processing

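Of the 8 members, 1 passed an adjusted p of 0.05 and kept passing with the most abundant coding transcript, with the longest transcript, with adjustment over 1 transcript per gene and at a threshold of 0.1. The count was 0 at a threshold of 0.01, 0 with adjustment over transcripts of at least 1 CPM, a set without Gls2, and 0 with the length and level trend removed, a setting added for this count after the data were seen; at an unadjusted p under 0.05 it was 1 in the authors' edgeR likelihood-ratio test. The 50 further pathway genes gave a count of 0 under every adjusted setting and 4 at an unadjusted p under 0.05. The log2 fold change of Gls2 stayed between 1.54 and 1.73. Both transcript settings used the same coding form of Gls2, which shares most of its exons with the main form. For the other members these settings gave the same rounded value as the main setting, and changing the adjustment or threshold cannot alter a sign. Only removal of the length and level trend could thus alter their signs, and it altered none. Nothing is read from these kept signs, since values left after the removal were as small as 0.02 for Glul. Some shorter rows of Glul, Pck1 and Got1, which no setting used, had the opposite sign to the main row. No paired analysis was possible because the deposited table holds no values of single libraries, and for the same reason leaving out each replicate was not run.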

Other observations

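Several members share exonic bases or near-identical sequence with other annotated genes. Slc1a1 shares 2631 exonic bases with 4430402I18Rik on the opposite strand, whose log2 fold change was 0.05 at 2.92 CPM per the authors' deposited table. Glul shares 116 bases with Teddm2 on the opposite strand (-0.25 at 0.343 CPM) and 93 with the microRNA gene Mir8114 on its own strand (-0.13 at 3.18 CPM) per the authors' deposited table. Got2 has copies in Got2-ps1 (99.1% identity over 1293 bases, log2 fold change 0.31 at 0.0613 CPM) and Gm10874 (98.8% over 1637 bases, 1.38 at 0.0245 CPM) per the authors' deposited table. The glutamine synthetase copy Glns-ps1 (96.8% over 1126 bases) stood at -0.17 and 0.0442 CPM per the authors' deposited table. These 3 copies were measured far below their parent genes, and how the counting treated reads that match both was not stated in the sources used here. Gm45760 shares 434 exonic bases with Got2 on the opposite strand and was not analysed here, and Gm5822 lies within the span of Slc1a1 with no shared exonic base (log2 fold change 0.34 at 1.11 CPM per the authors' deposited table). Glud-ps matches Glud1 at 97.6% over 656 bases and was not analysed here. For Gls2, Pck1, Slc38a3 and Got1 no other gene reached 90% identity over 100 bases.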
